A study of Mus musculus with 6 samples.

Results

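The last steps of mitochondrial respiration are carried out by complex III, the mobile carrier cytochrome c, complex IV and the ATP synthase. The genes described here are the nuclear genes that carry their subunit names: every symbol in the count table that begins with Uqcr, Cox4i, Cox5, Cox6, Cox7, Cox8 or Atp5, together with Cyc1 and Cycs. This rule, which uses names and no measured value, found 45 of the 24411 genes listed: 9 of complex III, 1 for cytochrome c, 18 of complex IV, 15 of the ATP synthase, and 2 (Atp5s and Atp5sl) that share the prefix but are not structural subunits. Cox7a2l, a supercomplex factor related to subunit 7A, was counted with complex IV.

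Sol, a muscle rich in slow oxidative fibers, was taken from 3 WT and 3 LSD1-mKO C57BL/6 mice after voluntary wheel running (VWR), with 1 poly(A) RNA library per mouse. LSD1-mKO mice were Lsd1 flox/flox and carried TgACTA1-CreERT2/+, in which the human ACTA1 promoter drives a tamoxifen-dependent recombinase in skeletal muscle fibers; WT mice were Lsd1-floxed without CreERT2. All were 8 weeks old when single-housed with a wheel for 38 days, were injected with tamoxifen at 75 mg/kg on 5 days after 3 days of familiarization, and were kept from the wheel and fasted for 6 hr before the tissue was taken. Every mouse had access to a wheel, so the comparison is between genotypes among mice with a wheel, and the loss of LSD1 and the presence of CreERT2 cannot be told apart. Libraries held 8940206 to 10989846 estimated counts in WT and 10984664 to 13798059 in LSD1-mKO. Kdm1a, which encodes LSD1, had 40.5, 38.2 and 33.6 counts per 1000000 (CPM, after TMM scaling of the library totals) in the 3 WT mice and 14.6, 16.6 and 16.6 in the 3 LSD1-mKO mice, here and below in the order of replicates 1 to 3. The 2 groups did not overlap, with a log2 fold change of -1.23 ± 0.11 (SE) and an adjusted p of 0.0160 in edgeR's quasi-likelihood test with Benjamini-Hochberg adjustment over all genes. Without WT replicate 2, or without LSD1-mKO replicate 1, 2 or 3, its adjusted p was 0.116, 0.111, 0.143 and 0.209, at log2 fold changes of -1.26 to -1.17. Whole muscle also holds cells in which ACTA1 is not active, so remaining Kdm1a RNA cannot be assigned to a cell type. The 49 marker genes of slow and fast fibers and of 6 other cell classes were detected in every library, apart from Hba-a1 of red blood cells in WT replicate 3, which shares reads with the near-identical Hba-a2.

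Complex III passes electrons from ubiquinol to cytochrome c, and complex IV, cytochrome c oxidase, passes them on to oxygen; both pump protons across the inner mitochondrial membrane. The ATP synthase lets the protons return through a ring in the membrane and uses the turning of that ring to make ATP in its catalytic head. Several small subunits of complex IV have a form that is made mainly in heart and skeletal muscle and another that most tissues use, and subunit c of the ATP synthase ring is encoded by 3 genes whose mature proteins are the same. The complexes also need subunits encoded by mitochondrial DNA. The mitochondrial genes mt-Cytb, mt-Co1, mt-Co2, mt-Co3, mt-Atp6 and mt-Atp8 are not among the listed genes under these names and were not analysed here.

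Promoter windows were found for 32 of the 45 genes in the RefSeq table of GRCm38.p6, each with 250 bases before and 50 bases after the start of the gene. The upstream bases of 3 of them are shown because they hold words recognised by factors that are known to control respiratory genes, NRF1 and the estrogen-related receptors (ERR), and because Cox6a1 and Cycs reappear below among the comparisons. Capitals mark GCATGCGC, the core of the NRF1 site, CCGGAAG, the core of an ETS site, and TCAAGGTCA, the ERR site, on either strand. In Cox6a1 the NRF1 word overlaps its own reverse complement, so that GCGCATGCGC holds it on both strands. The 3 genes lie on the minus strand, and the bases run 5′ to 3′ along the gene, ending at the base before its start in RefSeq. GENCODE, whose gene coordinates are given elsewhere, starts Cox6a1 further upstream, so that the last printed bases of Cox6a1, with the ETS word, lie inside the gene by that annotation.
Cox6a1 (chr5:115348959-115349208, minus strand): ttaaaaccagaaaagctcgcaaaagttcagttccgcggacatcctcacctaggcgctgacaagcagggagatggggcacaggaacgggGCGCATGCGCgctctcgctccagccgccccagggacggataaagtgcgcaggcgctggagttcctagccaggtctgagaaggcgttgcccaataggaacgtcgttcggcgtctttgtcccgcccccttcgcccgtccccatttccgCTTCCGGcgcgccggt
Cycs (chr6:50566570-50566819, minus strand): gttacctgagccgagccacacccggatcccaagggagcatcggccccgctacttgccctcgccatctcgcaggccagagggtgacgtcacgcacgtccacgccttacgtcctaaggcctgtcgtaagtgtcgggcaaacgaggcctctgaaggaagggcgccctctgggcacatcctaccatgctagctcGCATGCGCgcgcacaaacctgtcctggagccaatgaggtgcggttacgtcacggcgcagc
Atp5g3 (chr2:73911327-73911576, minus strand): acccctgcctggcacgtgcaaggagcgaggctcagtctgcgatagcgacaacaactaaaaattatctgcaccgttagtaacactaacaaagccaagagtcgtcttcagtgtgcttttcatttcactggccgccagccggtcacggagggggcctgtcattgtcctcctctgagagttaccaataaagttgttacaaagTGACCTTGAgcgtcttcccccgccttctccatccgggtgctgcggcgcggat

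The NRF1 word was present in the windows of 7 genes (Uqcrc1, Uqcr11, Cycs, Cox6a1, Atp5g2, Atp5k and Atp5l), or 21.9% of those matched, against 3.05% of all 27025 windows in the table and 5.91% of the 9733 windows of genes tested here. The ETS word was present in 10 genes, 31.2% of those matched, against 9.93% of all windows and 19.4% of the tested genes' windows. TCAAGGTCA was found in Atp5g3 alone, against 0.466% of all windows and 0.319% of the tested genes' windows, and the shorter AAGGTCA, which lies within it, in Atp5e, Atp5g3, Atp5k and Atp5l, or 12.5% of those matched, against 5.38% of all windows and 3.92% of the tested genes' windows. AAGATGGCG, a word of the YY1 site, was in Atp5j and Atp5j2, 6.2% of those matched, against 1.64% of all windows and 3.5% of the tested genes' windows. None of these words was in the windows of Cox7a1, Cox7a2 or Cox8b. These matches describe the letters of the windows and no binding was measured in these libraries.

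Of the 45 genes 23 have values that are not whole numbers, so the counts are estimates that can depend on how reads shared between genes were treated. Muscle and common isoforms can be separated at this read length: the longest transcripts of Cox6a1 and Cox6a2, of Cox7a1 and Cox7a2, of Cox8a and Cox8b, and of the 3 Atp5g genes shared no stretch of 75 bases with each other. Stretches of that length were shared with other genes or pseudogenes over 76.0% of Atp5l, 39.1% of Atp5o, 36.5% of Atp5h, 29.1% of Uqcrb, 27.9% of Atp5f1, 26.1% of Cycs, 25.0% of Cox7c, 23.8% of Uqcrc2 and 21.7% of Cox5a. The values of these genes can depend on how such reads were assigned, and the percentages do not measure an error in the counts. In Atp5o part of the sharing, 169 stretches, is with a second annotated gene of the same symbol. A further 11 members shared between 1.0 and 17.2%. Cox6a1 shared 6.4% with 1 pseudogene, and Cox6a2, Cox7a1, Cox7a2, Cox8a and Cox8b shared none.

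With cytochrome c included and Atp5s and Atp5sl left out, the members made up 5.56 to 6.01% of the transcripts estimated for the listed genes. This share takes the longest coding transcript of each gene and depends on that choice. It leaves out transcripts of the mitochondrial genes named above. Summed over complex III, transcripts per 1000000 (TPM, computed from the longest coding transcript of each gene) were 10503, 9978 and 9862 in the 3 WT mice and 9876, 10424 and 10319 in the 3 LSD1-mKO mice. For complex IV the sums were 22469, 21988 and 20910.4 in WT and 20772, 23002 and 21682 in LSD1-mKO. For the ATP synthase they were 26514, 24707 and 24456 in WT and 24363, 26032 and 26019 in LSD1-mKO. The genotypes overlapped in all 3 sums, and the group means differed by less than 1 SD of either group.

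The ratios between the summed levels of the complexes overlapped between the genotypes. Summed complex IV TPM was 2.10 to 2.21 times that of complex III over the 6 mice, with a mean of 2.15 ± 0.0436 in WT and 2.14 ± 0.0603 in LSD1-mKO (SD, n = 3 each). Summed ATP synthase TPM was 2.47 to 2.52 times that of complex III, with a mean of 2.49 ± 0.0268 in WT and 2.495 ± 0.0274 in LSD1-mKO. These ratios compare numbers of transcripts over unequal numbers of genes and do not count assembled complexes. They were 2.26 to 2.38, 2.60 to 2.66 and 1.10 to 1.17 when the length of the principal transcript was used instead. With the mean length of the coding transcripts, the 6-mouse mean sums were 9944 TPM for complex III, 17888 for complex IV and 21608 for the ATP synthase. With the longest they were 10160.5, 21804 and 25349. The size of the ratios therefore depends on the length chosen, and mean lengths lower both ratios to complex III.

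Within a complex the levels spread by more than the mice did. The 9 genes of complex III lay close together, from a 6-mouse mean of 714 TPM for Uqcrq, a small subunit, to 1613 for Uqcrb. In the ATP synthase, Atp5b, which encodes the catalytic β subunit, was the most abundant at 4635 TPM, followed by Atp5g3 of the ring at 2808 and Atp5a1, the α subunit, at 2749. Atp5g3 and Atp5a1 did not differ beyond the spread of the mice. In complex IV the highest were Cox6a2 at 3417, Cox8b at 3069.9 and Cox4i1 at 2684 TPM. Levels depend on the transcript length chosen: with the mean length of the coding transcripts, Uqcrc1, a core subunit, was the highest of complex III at 1771 TPM, while Cox6a2 and Atp5b stayed the highest of their complexes.

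**Figure D1:**
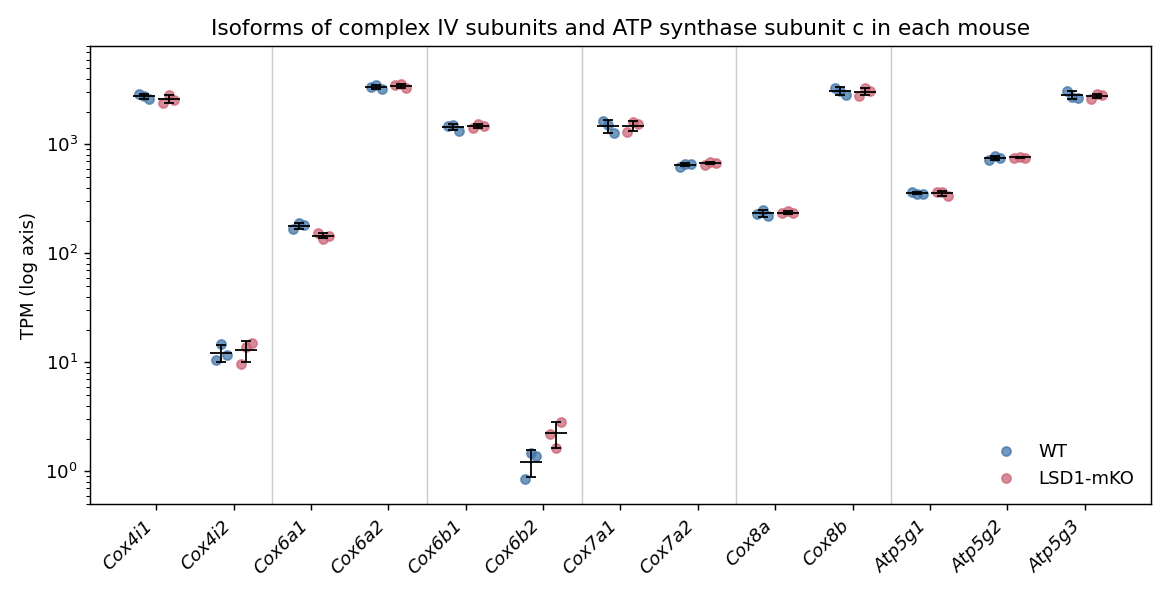
TPM on a log axis for the isoforms of complex IV subunits 4, 6A, 6B, 7A and 8 and for the 3 subunit c genes, with 1 point per mouse (blue WT, red LSD1-mKO, replicates 1 to 3 from left to right) and the mean ± SD of 3 mice in black. The muscle forms Cox6a2, Cox7a1 and Cox8b lie above their common partners in all 6 mice, and Cox6a1 is lower in the 3 LSD1-mKO mice than in the 3 WT mice.

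Sol used mainly the muscle forms of the paired complex IV subunits. Cox6a2, the heart and skeletal muscle form of subunit 6A, stood at 3374 ± 156 TPM in WT and 3461 ± 140.4 in LSD1-mKO (mean ± SD, n = 3 each). Its common partner Cox6a1 stood at 179 ± 10.1 in WT and 145 ± 7.93 in LSD1-mKO. Cox6a2 therefore made up 94.7 to 96.3% of the subunit 6A transcripts in the 6 mice.

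Subunit 8 showed a similar preference. Cox8b, its muscle form, stood at 3088 ± 246 TPM in WT and 3052 ± 242 in LSD1-mKO, or 92.3 to 93.5% of the subunit 8 transcripts. The common form Cox8a stood at 234 ± 16.2 and 237 ± 6.25 TPM. Cox8c, the testis form, had 2 counts in 1 library and none in the other 5.

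Subunit 7A was mixed. Cox7a1, the muscle form, stood at 1475 ± 199 TPM in WT and 1475 ± 154 in LSD1-mKO, and the common form Cox7a2 at 651 ± 22.5 and 675 ± 20.3. Cox7a1 was 65.6 to 72.6% of their sum in the 6 mice, or 70.2 to 76.5% with the principal transcript length. The related gene Cox7a2l stood at 374 ± 31.1 and 389.6 ± 34.2 TPM.

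The subunits whose second form belongs to lung, testis or other tissues were almost wholly of the common form. Cox4i2, the second form of subunit 4, which is best known from lung, stood at 12.3 ± 2.14 TPM in WT and 12.9 ± 2.83 in LSD1-mKO, 0.356 to 0.586% of the subunit 4 transcripts beside Cox4i1. Cox6b2, the testis form of subunit 6B, had 2, 4 and 4 counts in WT and 8, 6 and 8 in LSD1-mKO, against 27859 counts of Cox6b1 over the 6 libraries. The counts of Cox6b2 were under the expression filter and were not tested. Cox7b2, the testis form of subunit 7B, had 2 counts in WT replicate 1 and none elsewhere, while Cox7b stood at 1046 ± 39.4 TPM in WT. A floor of 3 counts over the 6 libraries corresponds to 0.0437 CPM, and Cox7b2 and Cox8c, with 2 counts each in all, were under it. Floors of this kind cover counting error only.

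The 3 genes of ATP synthase subunit c were all expressed. Atp5g3 stood at 2829.9 ± 249.8 TPM in WT and 2787 ± 137 in LSD1-mKO, Atp5g2 at 753 ± 27.7 and 760.3 ± 6.16, and Atp5g1 at 356 ± 8.12 and 355 ± 18.3. The place of Atp5g1 in this order is not settled, because its coding transcripts in the annotation run from 596 to 4715 bases. Its 6-mouse mean of 356 TPM rests on the longest, and the same counts would give 2814 TPM, about the level of Atp5g3, if all came from the shortest. Atp5g2 was below Atp5g3 in every mouse with the longest or the principal transcript length.

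No member passed the test between the genotypes. Of the 45 genes 42 passed the expression filter (all but Cox6b2, Cox7b2 and Cox8c), and 0 had an adjusted p under 0.05 in edgeR's test, against 0.0156% of all 12828 genes tested. An unadjusted p under 0.05 was reached by 1 gene, Cox6a1, against 6.4% of all genes tested, and DESeq2 and limma voom also gave 0 genes after adjustment and 1 before it. Groups that did not overlap were also found for Cox6a1 alone, against 12.7% of all genes tested. The median log2 fold change was -0.005 in complex III, 0.031 in complex IV and 0.007 in the ATP synthase, against -0.020 over all genes tested. In complex III 4 of 9 genes were fitted higher in LSD1-mKO, in complex IV 10 of 15, in the ATP synthase 12 of 15, and in all 29 of 42, against 45.2% of all genes tested. The members share their high and low mice, so these counts are not counts of independent observations.

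The intervals of the differences bound what the data allow. For 40 of the 42 genes the 95% interval of the log2 fold change lay inside -0.5 to 0.5, which was true of 53.6% of all genes tested. The genes behind that share were not matched to the members in abundance, so the 2 shares are not a comparison of like genes. The exceptions were Cox4i2, with an interval of -0.44 to 0.60, and Atp5s, with -0.24 to 0.59, which are the 2 least abundant of the 42 genes by CPM. The median SE was 0.109 over the 42 genes. No interval of the 42 reached 1 or -1 on the log2 scale.

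**Figure D2:**
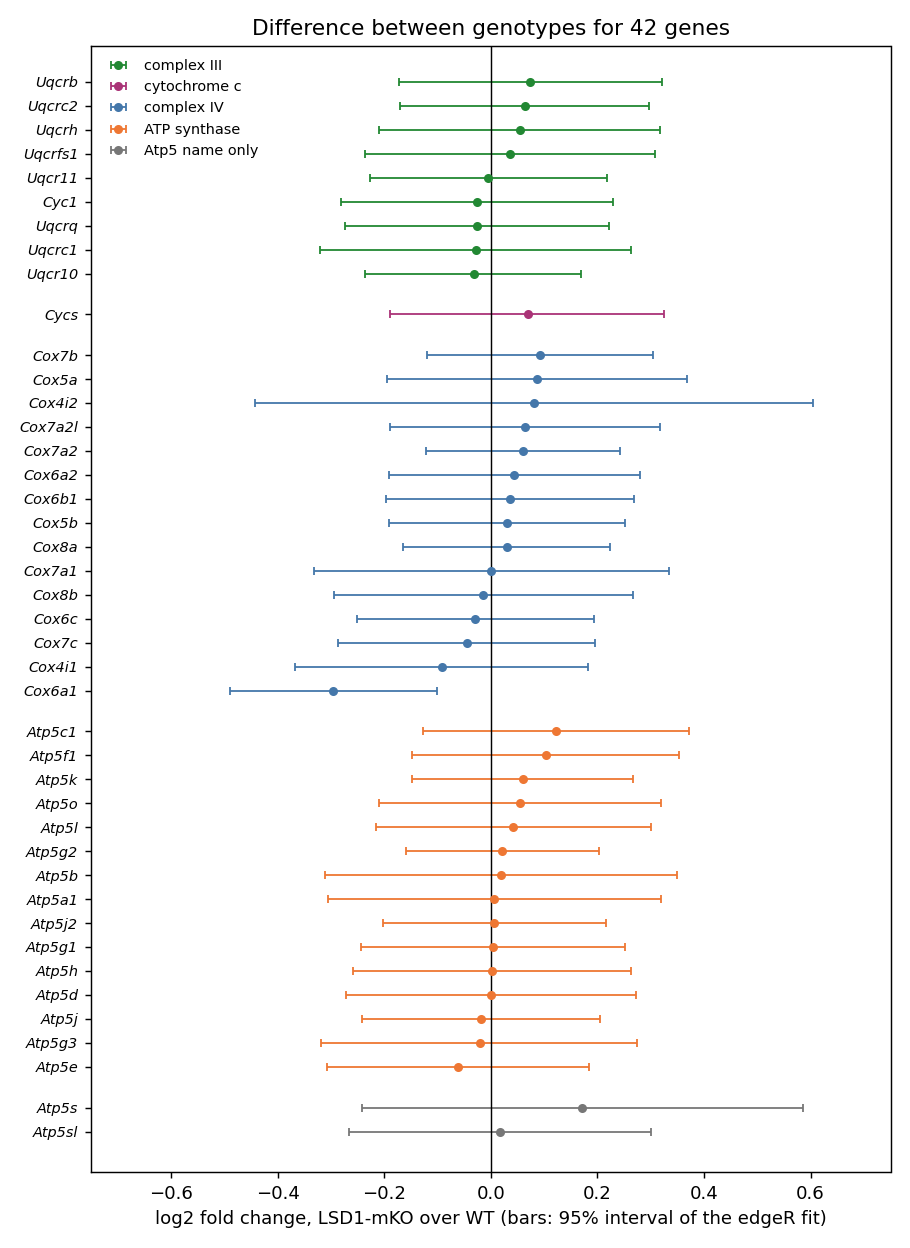
Fitted log2 fold change of LSD1-mKO over WT for the 42 genes tested, by complex and in descending order, with bars for the 95% interval of the edgeR fit. The interval of Cox6a1, -0.49 to -0.10, does not cross 0, unlike those of the other 41 genes, and its adjusted p was 0.578.

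Cox6a1, the form of subunit 6A that tissues other than heart and skeletal muscle use, had the largest fitted difference of the 42 genes. The gene lies on chromosome 5, 115345642 to 115348981 (GRCm38, minus strand). Its level was 47.0, 45.2 and 45.8 CPM in WT and 39.7, 35.2 and 37.5 CPM in LSD1-mKO. The lowest WT mouse was above the highest LSD1-mKO mouse, and the 3 mice of each genotype lay close together. The log2 fold change was -0.29 ± 0.085 (SE), a level 18.5% lower in LSD1-mKO, with an unadjusted p of 0.00777 and an adjusted p of 0.578 in edgeR's test. This difference did not pass the threshold after adjustment, and adjusted p ranged from 0.259 to 0.998 over the 14 other settings tried. Its direction was the same in each of these settings, with log2 fold changes of -0.34 to -0.24. With groups that do not overlap, leaving out 1 mouse could hardly turn it, and all settings use the same 6 mice. The constant direction is therefore not further evidence.

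Its muscle partner Cox6a2 was 1122, 1009 and 971 CPM in WT and 1085, 1099 and 1014 in LSD1-mKO, for a log2 fold change of 0.044 ± 0.10 with an adjusted p of 0.947, and the groups overlapped. The ratio of Cox6a2 to Cox6a1, in which the scaling between libraries cancels, was 20.04, 18.7 and 17.8 in the 3 WT mice and 23.0, 26.2 and 22.7 in the 3 LSD1-mKO mice, on the TPM scale. The lowest LSD1-mKO ratio exceeded the highest WT ratio. The mean log2 ratio was 0.34 higher in LSD1-mKO, with an SD of 0.085 in WT and 0.11 in LSD1-mKO (n = 3 each), and p was 0.1 in the 2-sided exact permutation test, the smallest that 3 mice against 3 can give. Adjusted over the 7 ratios tested, p was 0.7. The ratio uses the counts of Cox6a1 and is not separate evidence from them.

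The other isoform ratios overlapped between the genotypes. Cox7a1 over Cox7a2 was 2.64, 2.26 and 1.91 in WT and 1.99, 2.30 and 2.24 in LSD1-mKO, a difference in mean log2 ratio of -0.048 with a 2-sided exact permutation p of 0.9. Cox8b over Cox8a was 14.5, 12.4 and 12.8 in WT and 12.0, 13.4 and 13.2 in LSD1-mKO, a difference of -0.039 with an exact p of 0.7. In both pairs WT replicate 1 had the highest ratio of the 6 mice. Cox4i2 over Cox4i1 differed by 0.16 (exact p of 0.5), with 285 counts of Cox4i2 in all behind it. For the subunit c genes the differences were 0.017 for Atp5g1 over Atp5g3, 0.033 for Atp5g2 over Atp5g3 and -0.016 for Atp5g1 over Atp5g2, with exact p of 1.0, 0.8 and 0.9. Adjusted p was 1.0 for each of these 6 ratios. Cox6b2 over Cox6b1 was left out because Cox6b2 had fewer than 10 counts in every library.

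**Figure D3:**
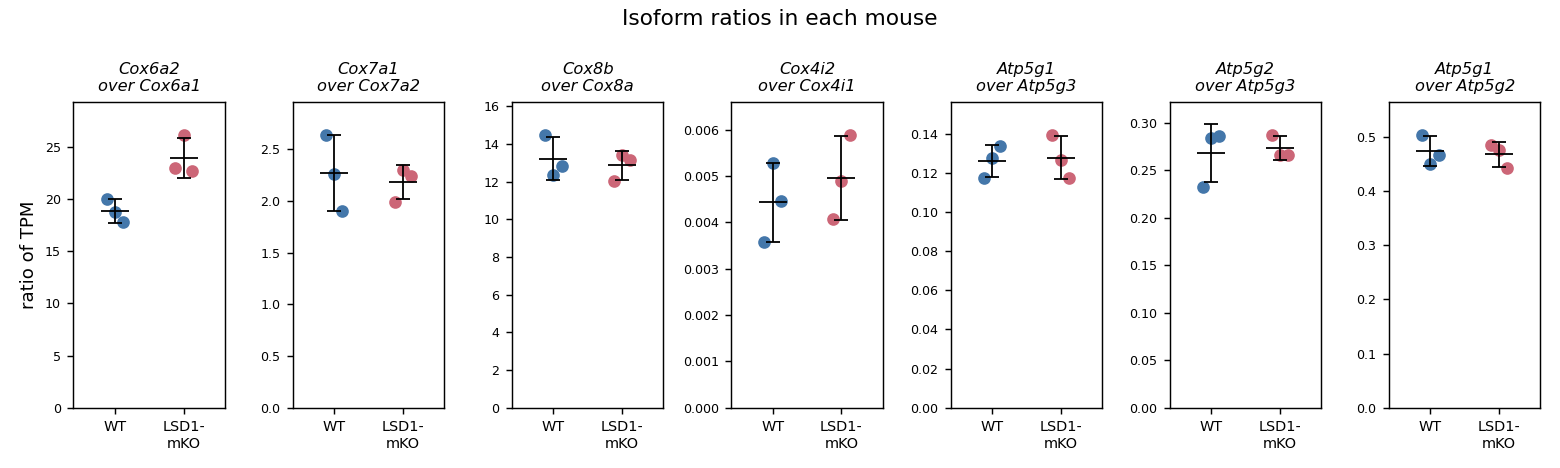
Ratio of TPM of 2 isoform genes in each mouse, on linear axes from 0, with points for replicates 1 to 3 from left to right and the mean ± SD of 3 mice in black. Cox6a2 over Cox6a1 runs from 17.8 to 20.04 in WT and from 22.7 to 26.2 in LSD1-mKO, and in the other 6 panels the groups overlap.

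Neither form of subunit 4 passed the test. Cox4i1, the common form of subunit 4, was 1092, 890.5 and 894 CPM in WT and 833, 975 and 891 in LSD1-mKO. It had the lowest log2 fold change of the complex after Cox6a1, -0.092 ± 0.12 (adjusted p of 0.9), and WT replicate 1 stood above the other 5 mice. Cox4i2 was 3.74, 4.50 and 3.82 CPM in WT and 3.26, 4.56 and 5.03 in LSD1-mKO, with 0.082 ± 0.23 on the log2 scale and the widest interval of the complex.

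Cox7a1 was 392, 308 and 271 CPM in WT and 288, 349 and 335 in LSD1-mKO, with a log2 fold change of 0.001 ± 0.15. Its 3 WT mice spread more than its 3 LSD1-mKO mice and enclosed them. Cox7a2 was 202, 185 and 193 CPM in WT and 196, 206 and 203 in LSD1-mKO, a difference of 0.061 ± 0.080. Cox7a2l was 214, 188 and 169.8 CPM in WT and 181, 212 and 205 in LSD1-mKO, a difference of 0.064 ± 0.11. In each of these genes the groups overlapped.

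Cox8b was 585, 471 and 452 CPM in WT and 459, 533 and 501 in LSD1-mKO, for a log2 fold change of -0.014 ± 0.12. Cox8a was 61.6, 58.2 and 53.8 CPM in WT and 58.4, 60.7 and 58.1 in LSD1-mKO, a difference of 0.030 ± 0.085. Cox8a is, like Cox6a1, the common form of its subunit, and the 95% interval of its difference was -0.16 to 0.22 against -0.49 to -0.10 for Cox6a1. Whether these differences differ from each other was not tested. Cox6b1 was 448, 390.2 and 366 CPM in WT and 398, 429 and 408 in LSD1-mKO, a difference of 0.036 ± 0.10. Cox7b, which had the highest log2 fold change of complex IV at 0.093 ± 0.092 (adjusted p of 0.872), was 495, 436 and 484 CPM in WT and 489.8, 525 and 494 in LSD1-mKO, with WT replicate 1 inside the range of the LSD1-mKO mice. The subunits without a tissue-specific partner, Cox5a, Cox5b, Cox6c and Cox7c, differed by -0.045 to 0.087.

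Complex III showed the smallest spread of differences. Cyc1, which carries the heme of cytochrome c1, was 612, 508 and 499.5 CPM in WT and 492, 541 and 559 in LSD1-mKO, for a log2 fold change of -0.025 ± 0.11. Uqcrb, a small subunit next to the quinone site, had the highest log2 fold change of the complex at 0.074 ± 0.11 and was 427, 331 and 384 CPM in WT and 404, 406 and 391 in LSD1-mKO. Uqcr10, another small subunit, had the lowest at -0.032 ± 0.088 and was 271, 234 and 252 CPM in WT and 255, 247 and 239 in LSD1-mKO. In all 3 genes the WT mice enclosed or overlapped the LSD1-mKO mice, and the lowest adjusted p of the complex was 0.914. The core subunits Uqcrc1 and Uqcrc2 and the Rieske iron-sulfur subunit Uqcrfs1 differed by -0.028, 0.064 and 0.036.

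Cycs, the cytochrome c of somatic cells, was 948, 762 and 803 CPM in WT and 879, 839.9 and 917 in LSD1-mKO. WT replicates 2 and 3 were below the 3 LSD1-mKO mice while WT replicate 1 was above them, and the log2 fold change was 0.069 ± 0.11 with an adjusted p of 0.928.

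In the ATP synthase Atp5c1, the γ subunit of the central stalk, had the highest log2 fold change. It was 969.7, 784 and 834 CPM in WT and 923, 927 and 967 in LSD1-mKO, for a log2 fold change of 0.12 ± 0.11 with an adjusted p of 0.864. Its 3 LSD1-mKO mice lay above WT replicates 2 and 3 and below WT replicate 1. Atp5e, the ε subunit of the same stalk, had the lowest log2 fold change at -0.062 ± 0.11 and was 456, 369 and 388 CPM in WT and 365, 411 and 385 in LSD1-mKO.

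By position in the enzyme, the differences were 0.007 for Atp5a1 and 0.020 for Atp5b in the catalytic head, 0.001 for Atp5d in the central stalk, and -0.018 to 0.10 for Atp5f1, Atp5h, Atp5j and Atp5o of the peripheral stalk. The membrane subunits Atp5j2, Atp5k and Atp5l differed by 0.006 to 0.060. Of the subunit c genes, Atp5g1 was 842, 694 and 737 CPM in WT and 789, 778 and 712 in LSD1-mKO, Atp5g2 was 267, 247 and 252 and 259.6, 261 and 257, and Atp5g3 was 1101, 833 and 846 and 867, 942 and 930.0. Their log2 fold changes were 0.004 ± 0.11, 0.022 ± 0.079 and -0.021 ± 0.13, and in each of the 3 the WT mice enclosed the LSD1-mKO mice. Atp5s, a coupling factor that is not a structural subunit, was 15.7, 11.5 and 10.9 CPM in WT and 11.8, 14.9 and 16.1 in LSD1-mKO. Atp5s differed by 0.17 ± 0.18, and Atp5sl, which shares the prefix and is also not a structural subunit, by 0.018.

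Mice of the same genotype also differed from each other. WT replicate 1 had the highest CPM of the 6 mice for 33 of the 42 genes, which was true of 23.4% of all genes tested, and for 7 of 9 genes of complex III, 12 of 15 of complex IV and 13 of 15 of the ATP synthase. WT replicate 2 was the lowest for 24 of the 42. These counts were taken from CPM after TMM scaling, and the order of the mice changes with the scale. By TPM the sums of complex III and the ATP synthase were highest in WT replicate 1, at 10503 and 26514. That of complex IV was highest in LSD1-mKO replicate 2, at 23002 against 22469 in WT replicate 1. The median deviation of the 42 genes from their 6-mouse mean was 0.15 on the log2 CPM scale in WT replicate 1, -0.10 and -0.093 in WT replicates 2 and 3, and -0.033, 0.057 and 0.017 in the LSD1-mKO mice. The size of this step depends on the scaling: with library totals alone it was 0.048 in WT replicate 1, against 0.060 in LSD1-mKO replicate 2. The complexes moved together in it, with 0.19, 0.14 and 0.15 in WT replicate 1 for complex III, complex IV and the ATP synthase. Cox6a1 was among the genes that did not follow the general pattern, since WT replicates 2 and 3 were also high for it.

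**Figure D4:**
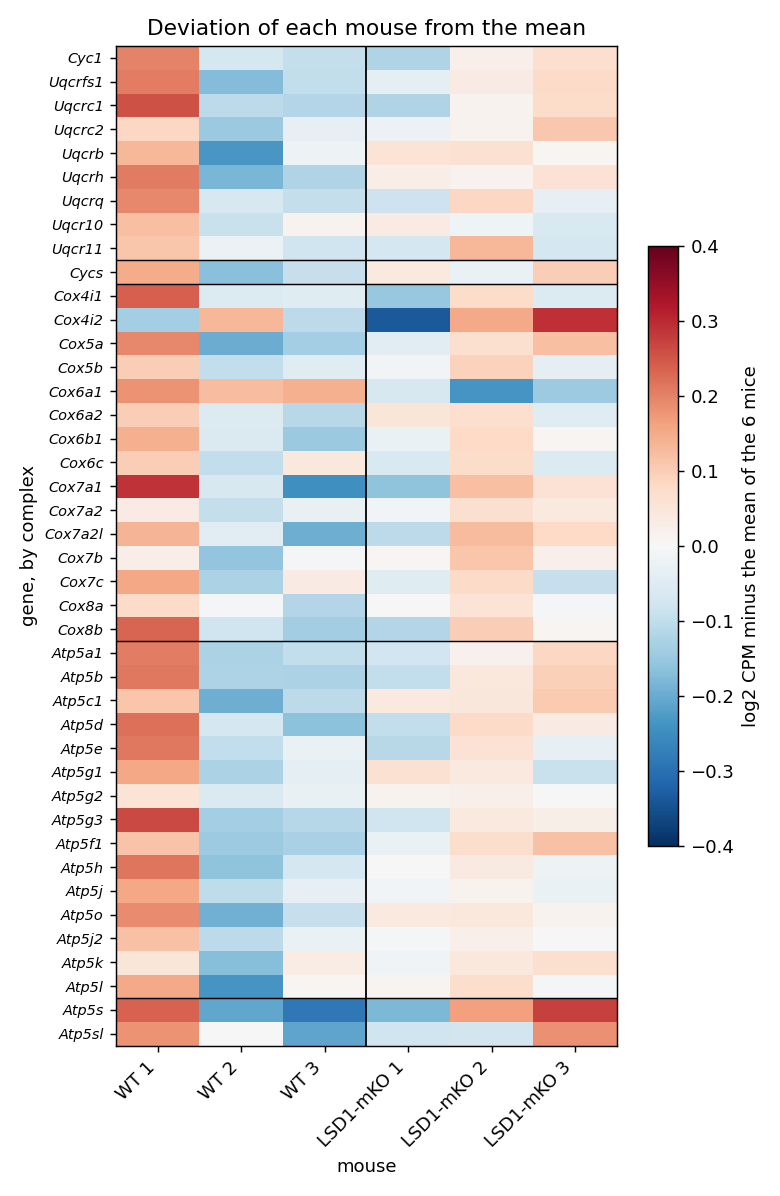
Deviation of log2 CPM, after TMM scaling, from the mean of the 6 mice for the 42 genes tested (rows, by complex) in each mouse (columns), from blue (lower) to red (higher). The colors depend on this scaling. The column of WT replicate 1 is red for all genes but Cox4i2, the other WT columns are mostly blue, and the row of Cox6a1 is red in the 3 WT mice and blue in the 3 LSD1-mKO mice.

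Marker genes of other cell classes differed between the mice too, and WT replicate 1 was the library with the fewest counts. The marker sums are in TPM, a different scale from the CPM after TMM scaling used for the deviations above. WT replicate 1 had the lowest summed TPM of the 6 mice for each of the 6 lists of cells other than muscle fibers. The 6 fibroblast markers summed to 823, 2250.5 and 2572 TPM in WT and 1749, 1131 and 1125 in LSD1-mKO, and the 5 immune markers to 180.3, 657 and 490.2 and 333, 192 and 282. Apart from Hba-a1, none of the markers was at 0 in any library. Endothelial, smooth muscle and pericyte, adipocyte and red blood cell markers summed to 232, 252, 1158 and 705 TPM in WT replicate 1 and to at least 263, 300.2, 1197 and 840 in the other 5 mice. Slow fiber markers summed to 46600.2, 44525 and 48085 in WT and 51612, 54058 and 44935 in LSD1-mKO, and fast fiber markers to 81811, 69117 and 76360.2 and 81169, 65107 and 75048. The part of the cell makeup in the levels of the respiratory genes was not tested, and in whole muscle fewer cells of a type cannot be told from less RNA per cell.

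The comparison of genotypes depended on WT replicate 1. Without it, 41 of the 42 genes were fitted higher in LSD1-mKO, all but Cox6a1, against 47.4% of the 13079 genes then tested. The medians became 0.11 in complex III, 0.094 in complex IV and 0.12 in the ATP synthase, against -0.013 over all genes. Groups that did not overlap were then found for 22 genes higher in LSD1-mKO, against 15.9% of all genes higher and not overlapping with 2 WT mice left, and for Cox6a1, which was lower. An unadjusted p under 0.05 was reached by 4 genes, Uqcrh at 0.19, Cox5a at 0.22, Atp5c1 at 0.22 and Cox6a1 at -0.28 on the log2 scale, against 14.4% of all genes, and 0 passed after adjustment, with a lowest adjusted p of 0.259. Uqcrh, the hinge subunit of complex III, and Cox5a had differed by 0.054 and 0.087 with all 6 mice. Without LSD1-mKO replicate 1, Cox4i2 and Cox7a2 joined Cox6a1 as genes whose groups did not overlap, against 24.6% of all genes. With WT replicate 2 or 3 left out instead, 14 and 17 of the 42 genes were fitted higher in LSD1-mKO, against 48.2% and 46.3% of all genes then tested. No label sets WT replicate 1 apart, and the values with all 6 mice stand as the result.

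The same pathway has genes that the names do not cover. Of 38 complex I genes, found by the Ndufa, Ndufb, Ndufc, Ndufs and Ndufv prefixes, 0 had an adjusted p under 0.05 and 0 an unadjusted p under 0.05 in edgeR's test, the latter against 6.4% of all genes tested. Groups did not overlap for 2 of the 38, Ndufb4 and Ndufv2, named after their values were seen and both higher in LSD1-mKO, against 12.7% of all genes tested. The 38 genes had a median log2 fold change of 0.027, 27 were fitted higher in LSD1-mKO against 45.2% of all genes tested, and WT replicate 1 was the highest for 30 of them. The 4 subunits of complex II, succinate dehydrogenase, differed by 0.008 to 0.11, and none had an unadjusted p under 0.05. Of the related genes outside the prefixes, Ndufa4, now counted as a complex IV subunit and also found by the complex I prefix, differed by 0.007 ± 0.11, Usmg5, a small membrane subunit of the ATP synthase, by -0.11 ± 0.099, and Atpif1, the inhibitor of the ATP synthase, by 0.15 ± 0.10. None of the 6 such genes tested passed the threshold.

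Assembly factors insert hemes and copper and join the subunits. Of 33 listed, 31 were tested, 21 were fitted higher in LSD1-mKO (45.2% of all genes tested were), and the median was 0.067. By edgeR's test 1, Cox19, which takes part in copper delivery to complex IV, had an unadjusted p under 0.05, at 0.30 ± 0.090 on the log2 scale, and 0 had an adjusted p under 0.05. That is 1 of 31, against 6.4% of all genes tested. The adjusted p of Cox19 was 0.619. Groups did not overlap for 3 of the 31, named after their values were seen, with Cox19 and Cmc1 higher and Surf1 lower in LSD1-mKO, against 12.7% of all genes tested. Over the 31 the log2 fold changes ran from -0.099 for Cox14 to 0.60 for Sco2, a copper chaperone of complex IV, which had 4.35 to 8.91 CPM in WT and 8.54 to 12.2 CPM in LSD1-mKO.

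Transcription factors and coactivators known to control respiratory genes formed the last list. Of the 11 tested, 8 were fitted higher in LSD1-mKO and the median difference on the log2 scale was 0.17. In 6 genes the groups did not overlap, with LSD1-mKO higher in each, against 6.63% of all genes tested that were higher without overlap. Of the 11, 3 (Esrrb, Esrrg and Perm1) had an unadjusted p under 0.05, against 6.4% of all genes tested. The list was chosen with earlier results known, and the paper had already reported higher Esrrg in these same libraries. The counts for this list are therefore not independent evidence. None had an adjusted p under 0.05 in edgeR's test. Esrrg, which encodes ERRγ, was 147, 125 and 116 CPM in WT and 267, 208 and 282 in LSD1-mKO, for a log2 fold change of 0.96 ± 0.14. Its adjusted p was 0.162 in edgeR's test and 1.82e-06 in DESeq2, and 0.0111 in edgeR without a filter on low counts. Esrrb, a related receptor, was 39.8, 36.0 and 30.6 CPM in WT and 52.0, 44.2 and 50.6 in LSD1-mKO, a difference of 0.47 ± 0.12 with an adjusted p of 0.534 in edgeR's test. Perm1, a muscle regulator of oxidative genes, differed by 0.52 ± 0.17, with an adjusted p of 0.680. Nrf1 and Gabpa, whose words were counted in the promoter windows, differed by 0.21 ± 0.12 and 0.081 ± 0.076. Tfam, which packages mitochondrial DNA and takes part in its transcription, differed by -0.014 ± 0.081. Atp5g3, the gene whose window held TCAAGGTCA, differed by -0.021 ± 0.13, and the other 3 genes with AAGGTCA, Atp5e, Atp5k and Atp5l, by -0.062, 0.060 and 0.042. Of the 7 genes with the NRF1 word, Cox6a1 differed by -0.29, Uqcrc1 by -0.028 and Uqcr11 by -0.005. Atp5g2 differed by 0.022, Atp5l by 0.042, Atp5k by 0.060 and Cycs by 0.069. Whether a word goes with a difference was not tested.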

How the data were processed

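Poly(A) RNA of Sol from 6 trained mice, 3 WT and 3 LSD1-mKO, was read as 75-base single-end reads and aligned by the authors to mm10 with STAR. The values the authors deposited are estimated counts for each gene, not normalized, in 1 column per mouse. In each library 12.9 to 14.7% of the values above 0 are not whole numbers. The counting tool and gene annotation are not given in the sources used here. The authors' DESeq2 table of fold changes and p-values was not used. Column headings matched sample titles by number. A spreadsheet turned 27 symbols of the table into dates, none of them a member.

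The estimated counts were rounded, and edgeR 4.0.16 under R 4.3.3 was used for TMM scaling, the filterByExpr filter and the quasi-likelihood test of genotype. Adjustment was by Benjamini-Hochberg over all 12828 genes that passed the filter, at a threshold of 0.05. SE and 95% intervals come from the F statistic of that fit. Nothing in the labels beyond the numbering says how the mice were sampled, so p-values set the genotype difference against the spread between these samples only. For TPM, gene lengths were those of the longest coding transcript (GENCODE vM21, GRCm38). Such lengths covered 99.68% of the counts. Depth was 8940206 to 13798059 counts, and PCR-amplified reads are not independent molecules. DESeq2 1.42.0, limma voom 3.58.1, other scalings and filters, a replicate block, mice left out and other transcript lengths were alternatives. Chi-square per gene between libraries was at least 9.39, above the sampling noise of repeated draws from 1 library. Isoform ratios were compared by exact permutation over the 20 ways to choose 3 of 6 mice.

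The members and lists were chosen with earlier results of these data known. By rule, values in every mouse are given for isoform partners, Cyc1, Cycs, genes with an unadjusted p under 0.05 or without overlap, and the highest and lowest fold change of each complex. Atp5s, and list genes other than Esrrg and Kdm1a, were named after their values were seen. Promoter windows come from RefSeq (GRCm38.p6).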

Additional observations from a re-analysis of the deposited data

How the results depend on the processing

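With 1 mouse left out at a time, 0 genes had an adjusted p under 0.05 in edgeR's test. An unadjusted p under 0.05 was reached by 1 to 4 of them, against 3.78 to 14.4% of all genes. Groups did not overlap for 1 to 23, against 18.0 to 33.8% of all genes. The highest counts came without WT replicate 1. Over the mice left out, the median of the ATP synthase genes ran from -0.042 to 0.12. Genes without overlap were 2 with library totals alone (Atp5c1 added), against 11.8% of all genes. They were also 2 without a filter on low counts (Cox6b2 added), against 10.6% of all genes. With 1 mouse left out at a time the direction of a log2 fold change turned for 32 of the 42 genes. For 14 of them, those given mouse by mouse, the ranges were Cox7a1 -0.11 to 0.17, Cox8a -0.020 to 0.078, Cox8b -0.085 to 0.11, Cox4i1 -0.15 to 0.013, Cox4i2 -0.042 to 0.25, Cyc1 -0.078 to 0.076, Uqcrb -0.016 to 0.17, Uqcr10 -0.083 to 0.024, Atp5e -0.12 to 0.036, Cox7a2l -0.012 to 0.16, Cox6b1 -0.025 to 0.12, Atp5g1 -0.055 to 0.088, Atp5g2 -0.00025 to 0.058, Atp5g3 -0.092 to 0.12, and the other 18 lay between -0.11 and 0.19. The differences in log2 isoform ratios that turned ran as follows: Cox7a1 over Cox7a2 -0.17 to 0.068, Cox8b over Cox8a -0.086 to 0.029, Atp5g1 over Atp5g3 -0.048 to 0.077, Atp5g2 over Atp5g3 -0.064 to 0.085, Atp5g1 over Atp5g2 -0.054 to 0.030. With upper quartile scaling Cox7a1 became -0.003 and Atp5g1 -0.00019, with library totals alone both became -0.012, and without a filter Cox8b became 0.001. In none of these cases did an adjusted p pass the threshold. The summed TPM of complex III was 9587 with principal transcript lengths, and with mean transcript lengths the sums were 17888 for complex IV and 21608 for the ATP synthase. The replicate numbers did not pair the mice: deviations of same-numbered mice correlated at -0.35, -0.11 and -0.15, and 0 of 6 mice were most like the mouse of their own number. With the replicate block, 0 of the 42 genes had an adjusted p under 0.05 and 1 an unadjusted p under 0.05, the adjusted p of Cox6a1 was 0.981 and that of Kdm1a 0.299, the calls over all genes went from 2 to 1, and the log2 ratio of Cox6a2 over Cox6a1 was 0.34 higher in LSD1-mKO, with a sign-flip p of 0.25, the smallest that 3 pairs give. Leaving out Atp5s, Atp5sl and Cox7a2l, chosen after seeing the data as were principal transcript lengths, changed none of the counts of genes called. DESeq2 called 42 of all genes tested, none of them among the 42 genes described.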
